A study of Mus musculus with 12 samples.

Results

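C166 cells, a mouse line labelled endothelial, that carried an shRNA chosen to lower Vegfa were compared with C166 cells that carried the same kind of vector without an shRNA. The comparison used every array of these groups, 4 VEGF-down and 4 GFP, which is 8 of the 12 expression arrays of the series. It covered all 17306 probe sets that are not controls, of 17370 in the deposited matrix, with 1 probe set for each Entrez gene. GFP cells had received a lentiviral vector with the GFP marker gene and no shRNA. The VEGF-down cells received a vector that encodes GFP and an shRNA that lowers VEGF-A, and the remaining 4 arrays (VEGF-up) came from cells with GFP and an shRNA that raises VEGF-A. All cells were transduced at a multiplicity of infection of 10, and all were collected at day 7. Nearly all of the cells expressed GFP, so GFP and vector integration are shared by all groups, and cells without any vector are not part of the comparison. The shRNAs are complementary to the Vegfa promoter, each shRNA group carries 1 shRNA, and no group with an unrelated shRNA is part of the comparison. The labels do not say whether the 4 arrays of a group come from separate cultures, so the p-values below measure only the spread between these arrays, which may be technical.

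VEGF-A is a secreted growth factor that binds receptor tyrosine kinases on endothelial cells and drives their survival, migration and division. Small RNAs aimed at a promoter can lower or raise transcription of the gene they match, and any small RNA can also pair with other transcripts through its seed or trigger a general response to double-stranded RNA. The title of the series names off-target effects as its subject, and the question here is which genes and pathways besides Vegfa differed between VEGF-down and GFP cells. In mammalian cells, transcripts for amino acid supply, protein degradation, growth factor signalling and cell adhesion are controlled in groups, by transcription factors that many members of a pathway share.

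Levels are log2 of the array intensity after GCRMA, a background correction and normalization for this kind of array. A difference is the mean of the VEGF-down arrays minus the mean of the GFP arrays on this scale, with its standard error (SE) and the Benjamini-Hochberg adjusted p of limma, a linear model fitted to all probe sets. "Rose" and "fell" mean an adjusted p under 0.05. A level of 3.09 served as background, the 95th percentile of 68 chemosensory receptor probe sets that such cells are not expected to use. The 12 arrays had median intensities of 35.6 to 37.1, and 62.5% to 63.3% of probe sets lay above background on each. Across probe sets, arrays of a group correlated with each other at a mean r of 0.9987 or more. The highest correlation of a VEGF-down array with any array outside its group was 0.9938.

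The endothelial label was checked against 18 defining marker genes. Of these, 6 had a group mean above background in GFP cells and 6 in VEGF-down cells. Pecam1, Cdh5 and Tek, which encode PECAM-1, VE-cadherin and the angiopoietin receptor TIE2, had mean levels of 2.43, 2.61 and 2.79 in GFP cells and 2.42, 2.60 and 2.73 in VEGF-down cells, all below background. Kdr and Cd34 were the 2 endothelial markers that rose, and 0 fell by limma (8 were lower at an unadjusted p under 0.05). The summed intensity of the list was 533 to 557 in GFP arrays and 875 to 941 in VEGF-down arrays. Most defining markers of the labelled type were thus at background on these arrays, and the cells are called C166 cells below. Of 13 mesothelial markers, 12 had a group mean above background in both groups, 7 rose and 5 fell, and their summed intensity was 16694 to 17488 in GFP arrays and 19763 to 20306 in VEGF-down arrays. Within this list Upk1b, a uroplakin gene, rose by 1.17 ± 0.04 (adjusted p = 7.47e-09), whereas Bnc1, a zinc finger factor gene, differed by -0.63 ± 0.03 (adjusted p = 9.96e-08). Of 15 fibroblast and mural markers, 0 rose and 7 fell by limma (1 higher and 11 lower at an unadjusted p under 0.05, and 1 rose without VEGF-down replicate 3 or 4), with summed intensities of 37045 to 38561 in GFP arrays and 33020 to 33980 in VEGF-down arrays. Col1a1, a collagen chain gene of that list, fell 1.62-fold (-0.70 ± 0.08, adjusted p = 2.89e-05). Of 16 striated muscle markers, 1 rose and 3 fell, and their sum went from 2325 to 2697 in GFP arrays to 510 to 554 in VEGF-down arrays, while Myod1 and Myog were at background in both. Among 8 cartilage and bone markers 1 rose and 1 fell, with sums of 5761 to 6225 in GFP arrays and 3456 to 3758 in VEGF-down arrays. The lists for epithelial cells (12 measured), visceral endoderm (10) and macrophages and blood (9) held 1, 1 and 0 rises and 0 falls by limma. Without GFP replicate 3 or VEGF-down replicate 3, 1 epithelial marker fell, without GFP replicate 4, 2 rose, and without VEGF-down replicate 3 or 4, 1 macrophage and blood marker fell. At an unadjusted p under 0.05 they held 1, 1 and 0 higher and 4, 4 and 2 lower genes, and Epcam, Afp and Ptprc were at background in both groups. The part of these marker differences in the results below was not tested. In bulk RNA, fewer cells of a kind and less RNA per cell cannot be told apart.

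The target of the shRNA is in the promoter of Vegfa, on the minus strand of chromosome 17. The 250 bases before a Vegfa start site in RefSeq (assembly GRCm38.p6, chr17:46032378-46032627, 5′ to 3′ on the minus strand) are shown because the shRNA was directed at this kind of region; the exact stretch it matches is not given in the sources used here.
Vegfa promoter: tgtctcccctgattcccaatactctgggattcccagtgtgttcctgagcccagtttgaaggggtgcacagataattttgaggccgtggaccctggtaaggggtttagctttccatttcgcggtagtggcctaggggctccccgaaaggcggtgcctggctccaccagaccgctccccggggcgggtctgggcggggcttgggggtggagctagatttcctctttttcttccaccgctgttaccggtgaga

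Vegfa itself was the check of the labels. Its levels were 7.15, 7.37, 7.13 and 7.15 in the GFP arrays and 6.46, 6.61, 6.54 and 6.55 in the VEGF-down arrays. All 4 VEGF-down arrays lay below all 4 GFP arrays. The difference was -0.66 ± 0.08 (SE, adjusted p = 5.76e-05), a 1.58-fold lower level, and the exact permutation test (two-sided, 8 values) gave p = 0.0286, the smallest that 4 against 4 arrays allow. Vegfa in VEGF-down cells was also below the VEGF-up cells, by -1.0 (adjusted p = 1.74e-06).

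Against GFP cells, 2521 probe sets rose in VEGF-down cells (14.6% of those tested) and 2837 fell (16.4%), 5358 in all (31.0%). With arrays scaled to poly-A spike-ins, which are control RNAs put in ahead of the labelling step, the same test gave 974 rises and 13438 falls, and the median of all probe sets went from -0.01 to -0.23. With median centring it gave 2545 rises and 8163 falls, although the median of all probe sets moved only from -0.01 to -0.03. The directions below are therefore relative to the bulk of probe sets, as GCRMA fixes it. Spike-in means were 6.50 to 6.72 on the GFP arrays and 6.72 to 6.88 on the VEGF-down arrays. Among the 10867 probe sets with a mean above background, 22.9% rose and 22.2% fell. Most differences were small, with a median size of 0.29 among the probe sets called, and 167 rises and 154 falls (1.85% of probe sets) reached 2-fold. Of the 5358 probe sets, 451 had a mean at or below background, and 401 of those differed by less than 0.1. The plot of all probe sets shows rises and falls over the whole range of levels above background.

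**Figure D1:**
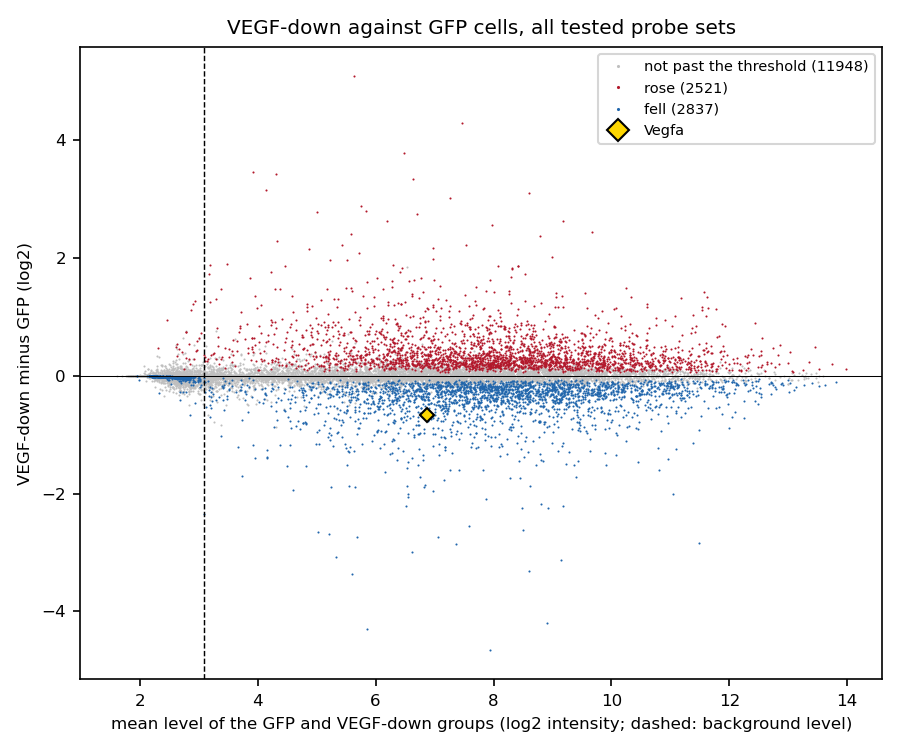
Each point is 1 of 17306 probe sets, with the mean level of the GFP and VEGF-down groups (log2 intensity) on the x axis and the difference VEGF-down minus GFP (log2) on the y axis. Red points rose (2521) and blue points fell (2837) at an adjusted p under 0.05, grey points did not pass, the dashed line marks the background level of 3.09, and Vegfa is the diamond at a difference of -0.66.

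The VEGF-up arrays carry the same vector with another shRNA, so VEGF-down can be set against them directly. Comparisons of either shRNA group with GFP share the GFP arrays, and those of VEGF-down with GFP and with VEGF-up share the VEGF-down arrays. Directly between VEGF-down and VEGF-up arrays, 30.6% of probe sets passed the threshold. The 40 genes named next all differed from VEGF-up in the direction they had against GFP, as did 72.9% of all probe sets past the threshold against GFP. Both comparisons use the same VEGF-down arrays, for whose large differences the 40 were chosen, so this is no independent support. The 40 were also chosen for VEGF-down and GFP arrays that do not overlap, which holds for 37.1% of all probe sets.

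Large rises included genes for protease inhibitors, a surface protein, a matricellular protein and a precursor of the cornified envelope. The largest among genes not described for this series before was Serpinb7, a member of the ovalbumin-like family of serine protease inhibitors. Its levels were 5.39, 5.30, 5.29 and 5.30 in GFP arrays and 8.09, 8.05, 8.01 and 8.11 in VEGF-down arrays, with no overlap, a rise of 2.74 ± 0.05 (adjusted p = 3.06e-11, 6.69-fold). Its VEGF-up mean was 5.43, near that of GFP cells. Msln, which encodes the surface protein mesothelin, went from 7.99, 7.77, 7.86 and 7.80 to 10.51, 10.53, 10.43 and 10.49 (difference 2.63 ± 0.06, adjusted p = 1.42e-10). Every VEGF-down array was above 10, where no GFP array reached 8. Fxyd3, which encodes a small regulator of the sodium pump, was more variable in the controls, at 4.71, 4.58, 4.97 and 5.25, and stood at 7.55, 7.60, 7.34 and 7.55 in VEGF-down cells (adjusted p = 2.15e-07). Scel, which encodes sciellin, a precursor of the cornified envelope of epithelia, rose by 2.38 ± 0.05 and Serpinb11 by 2.29 ± 0.07. Ccn5, a secreted matricellular protein gene of the CCN family, rose by 2.45 ± 0.07 from a GFP mean of 8.45.

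Several of the largest rises encode lipid enzymes. Pla2g7, the gene for the acetylhydrolase that inactivates platelet-activating factor, had levels of 6.76, 6.73, 6.68 and 6.60 in GFP arrays and 9.10, 9.16, 9.34 and 9.40 in VEGF-down arrays. This is a rise of 2.56 ± 0.06 with a gap of more than 2 log2 units between the groups (adjusted p = 4.1e-10). Pla1a, a phospholipase that acts on phosphatidylserine, rose by 2.15 ± 0.12, and Ch25h, which makes 25-hydroxycholesterol, by 1.86 ± 0.08. Ces1f, of the carboxylesterase family, rose by 2.41 ± 0.08 and Mup5, a major urinary protein gene, by 2.23 ± 0.08. Both belong to families of similar neighbouring genes, so the assignment of their signal to 1 member is uncertain. Aspa, which cleaves N-acetylaspartate, rose by 2.22 ± 0.11 and Gda, a guanine deaminase gene, by 1.86 ± 0.04.

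Receptors formed another share of the large rises. Rarb, the gene for retinoic acid receptor beta and itself a classic target of retinoic acid, went from 5.92, 5.96, 6.13 and 5.95 to 7.93, 7.83, 8.08 and 8.04, a rise of 1.98 ± 0.07 (adjusted p = 3.08e-09). Ramp3, whose product turns the calcitonin receptor-like receptor into an adrenomedullin receptor, was at 4.24, 4.25, 4.25 and 4.25 in GFP arrays and 6.36, 6.43, 6.05 and 5.99 in VEGF-down arrays. The control arrays were nearly equal (SD 0.0092), which may be a lower limit of the probe set. The VEGF-down arrays spread over 0.4 log2 units, all above the controls. Tnfrsf21, which encodes death receptor 6, rose by 1.87 ± 0.05, Clec7a, the gene for the beta-glucan receptor dectin-1, by 2.09 ± 0.13, and Adgrf5, an adhesion G protein-coupled receptor gene, by 1.87 ± 0.04. Itih2, a heavy chain gene of the hyaluronan-binding inter-alpha-trypsin inhibitors, had the tightest groups of the named rises, 7.99, 7.93, 7.99 and 8.0 against 10.03, 10.01, 10.03 and 9.94 (adjusted p = 1.12e-12). Csrnp1, which encodes a nuclear protein, rose by 1.83 ± 0.06 from GFP arrays that were also nearly equal (SD 0.0063).

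Several of the large falls encode secreted or surface proteins. Angptl6, an angiopoietin-like secreted factor gene, went from 6.57, 6.40, 6.58 and 6.64 in GFP arrays to 3.86, 3.87, 3.87 and 3.87 in VEGF-down arrays, a fall of 6.43-fold (difference -2.69 ± 0.06, adjusted p = 1.42e-10). The SD of its VEGF-down arrays was 0.0027. Such nearly equal values may lie at a lower limit of the probe set, so the fold may be a lower bound. The VEGF-up mean of Angptl6 was higher than in GFP cells, 7.34, and VEGF-down differed from it by -3.47 (adjusted p = 1.59e-11). The related gene Angptl7 fell by a difference of -2.21 ± 0.07, with a VEGF-up mean of 9.21 between those of GFP (10.29) and VEGF-down cells (8.08). Gpc3, which encodes the heparan sulfate proteoglycan glypican 3, was at 9.95, 9.55, 9.86 and 9.90 in GFP arrays and 7.27, 7.15, 7.19 and 7.17 in VEGF-down arrays (difference -2.62 ± 0.07, adjusted p = 9.76e-10). Ptx3, the gene of the soluble pattern recognition protein pentraxin 3, differed by -2.09 ± 0.09, and Avpr1a, a vasopressin receptor gene, by -2.0 ± 0.08. Bambi, a decoy receptor gene that dampens TGF-beta and BMP signals, fell from 7.96 to 5.99, and Ptk7, a catalytically inactive receptor kinase of planar cell polarity, from 7.47 to 5.60.

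Metabolic enzyme genes made up much of the rest. Psph, whose enzyme performs the last step of serine synthesis, was at 9.92, 9.86, 9.90 and 9.91 in GFP arrays and at 7.69, 7.67, 7.82 and 7.70 in VEGF-down arrays. The groups were more than 2 log2 units apart without overlap (difference -2.18 ± 0.03, adjusted p = 1.36e-11). Abat, which degrades GABA, differed by -2.05 ± 0.07, Hsd11b2, which inactivates glucocorticoids, by -1.89 ± 0.10, Npl, which cleaves sialic acid, by -1.89 ± 0.07, and Gsta3, of the glutathione transferase family, by -1.89 ± 0.08. Osgep, the gene of a tRNA-modifying enzyme, had levels of 7.71, 7.52, 7.51 and 7.76 in GFP arrays and 5.94, 5.84, 4.97 and 4.92 in VEGF-down arrays. The VEGF-down arrays fell into a higher and a lower pair, both below the controls (adjusted p = 1.39e-05). Lmod1, which encodes leiomodin 1 of smooth muscle thin filaments, showed a like spread, 3.92, 3.71, 2.76 and 4.15 against 5.46, 5.53, 5.66 and 5.66 (adjusted p = 8.18e-05). Regulators of transcription were among the falls, E2f6, a repressive E2F (-1.77 ± 0.07), and Nfe2l1, described with the proteasome below. Nrep (-2.01 ± 0.05), Tmem242 (-2.24 ± 0.06), Tmem178 (-1.87 ± 0.11) and Ehd3, an endocytic recycling gene (-1.86 ± 0.04), complete the named falls.

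**Figure D2:**
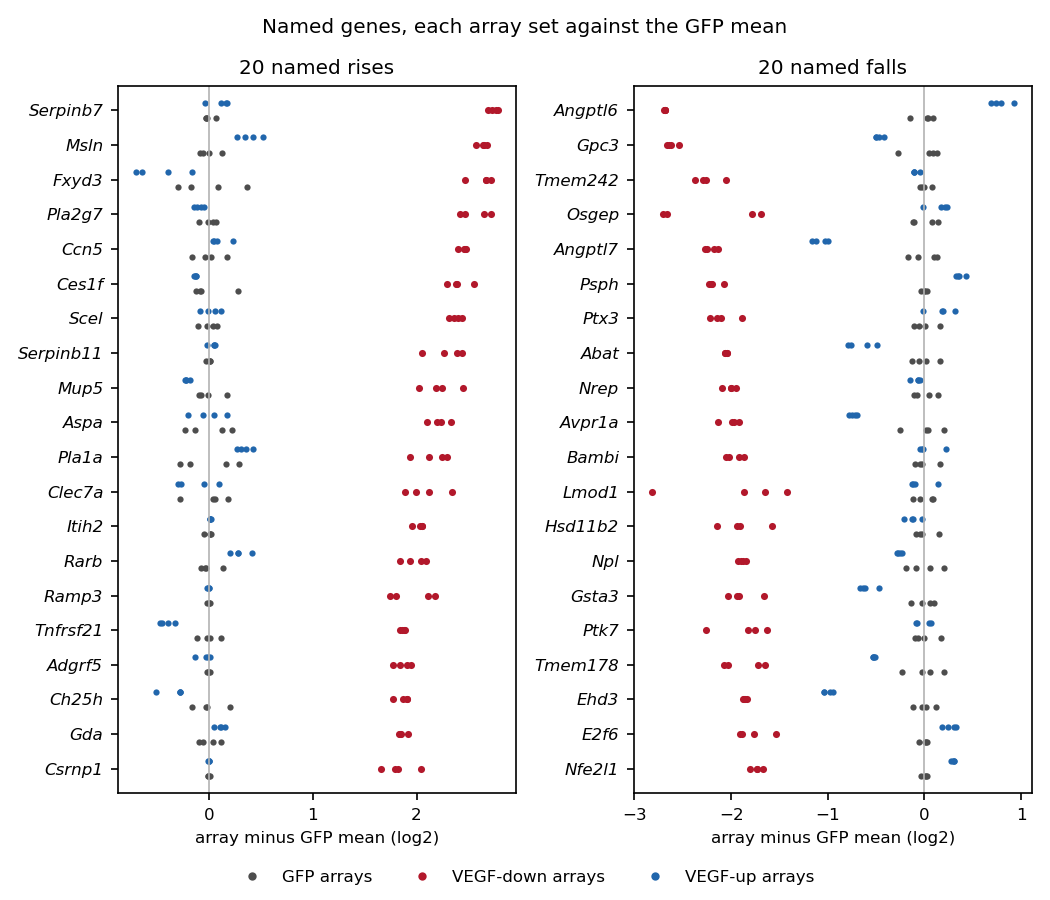
Each row is a named gene and each point 1 array, placed on the x axis by its level minus the mean of the 4 GFP arrays (log2), with GFP arrays in grey, VEGF-down arrays in red and VEGF-up arrays in blue. The red points lie apart from the grey ones in all 40 rows, to the right for the 20 rises and to the left for the 20 falls, from Serpinb7 at 2.74 to Angptl6 at -2.69. Lack of overlap was a condition for choosing these genes.

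All 40 of these genes are also in the authors' deposited table, which lists 617 genes as higher and 587 as lower in VEGF-down cells. Of its 1204 genes, 1203 passed the threshold here in the same direction. That table is of the same comparison, and the 40 were chosen for large differences in it, so neither count is independent support. The authors' deposited table gives a fold of 6.56 for Serpinb7, 6.16 for Msln, -6.20 for Gpc3, -4.52 for Psph and -3.24 for Nfe2l1, where a minus sign marks a lower level.

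The probe sets were then read as 40 lists of genes by pathway or family. The members given for a list below are not always those with its largest differences. In 32 lists the share of measured members past the threshold was above the 31.0% of all probe sets, but list members are also more often expressed than the average probe set. Among probe sets with a mean above background the share was 45.2%, and fewer lists exceeded that. Of probe sets above background 22.9% rose and 22.2% fell, and list shares near these are not read as a change of that list. Falls outnumbered rises in 15 lists, rises outnumbered falls in 18, and the counts were equal in 7. With spike-in scaling falls outnumbered rises in all 40. Differences between the median of a list and the median of all probe sets (-0.01) do not depend on that scaling. The highest shares of falls were in the proteasome, serine and one-carbon, insulin-like growth factor, splicing and tRNA synthetase lists. Shares of rises were highest in the clock, insulin-like growth factor, retinoid, heparan sulfate and MAPK feedback lists. The insulin-like growth factor axis is thus named in both directions, with 50% of its members risen and 44.4% fallen.

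**Figure D3:**
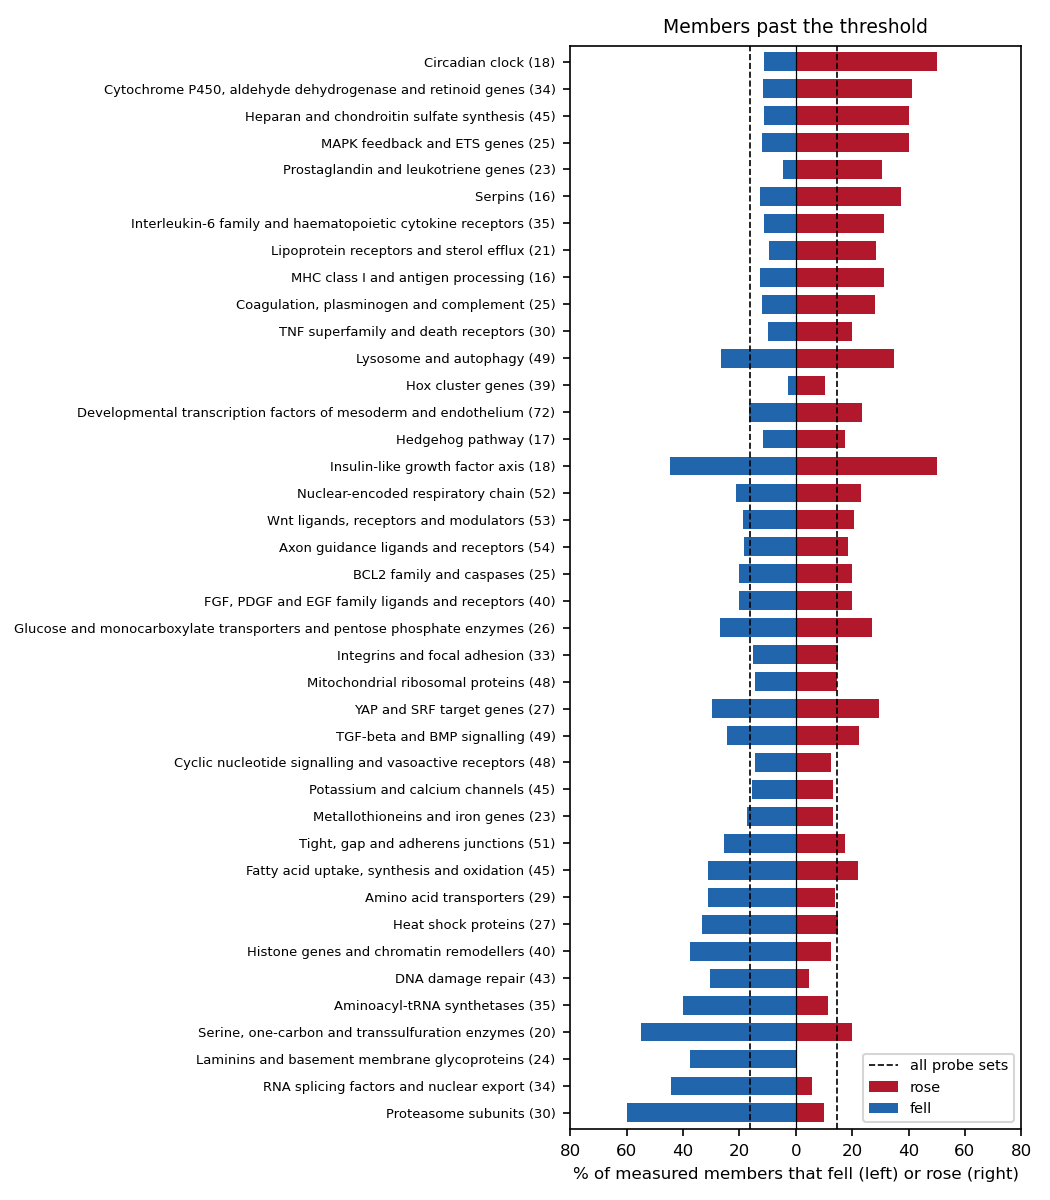
Each row is a list with its number of measured genes in brackets, and the bars give the percentage of its members that rose (red, to the right) and fell (blue, to the left). The dashed lines mark the shares over all probe sets, 14.6% risen and 16.4% fallen, which the proteasome (18 of 30 fell) and the insulin-like growth factor axis (9 rose and 8 fell of 18) exceed.

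Genes that charge tRNAs with amino acids were lower in VEGF-down cells, mostly those of the cytosol. Of 35 measured aminoacyl-tRNA synthetase genes, 14 fell and 4 rose, with a list median of -0.03. Among the 19 that serve the cytosol (2 of these genes, for glycine and lysine, also serve mitochondria), 13 fell and 1 rose, with a median of -0.45. Of the 16 with mitochondrial isoforms of their own, 1 fell and 3 rose, with a median of 0.0. Iars, for isoleucine, was at 10.63, 10.51, 10.52 and 10.53 in GFP arrays and 9.30, 9.15, 9.33 and 9.19 in VEGF-down arrays. This was the largest difference of the list, -1.30 ± 0.05 (adjusted p = 4.45e-09). Eprs, for glutamate and proline, differed by -0.79 ± 0.04, Aars, for alanine, by -0.78 ± 0.07, Gars, for glycine, by -0.68 ± 0.04, and Sars, for serine, by -0.67 ± 0.04. Tars, Lars, Nars, Cars and Yars differed by -0.60, -0.58, -0.53, -0.51 and -0.45. On the other side, the mitochondrial gene Fars2, for phenylalanine, rose by 0.49 ± 0.09 (adjusted p = 0.00128). Hars2 and Iars2 rose by 0.36 ± 0.06 and 0.33 ± 0.04, and with spike-in scaling neither passed the threshold. Against the VEGF-up arrays, Iars differed by -1.69 and Eprs by -1.18.

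Cytosolic synthetase genes are known targets of ATF4, a transcription factor of the amino acid response, which binds a composite C/EBP-ATF response element. Promoter windows (250 bases before to 50 after each start site, RefSeq, GRCm38.p6) were searched on both strands for the element as TGATGNAA. Of the 14 synthetase genes that fell, 9 had a window, and 5 of these held the element. It was in 0 of 15 windowed genes that did not pass and 0 of 2 that rose, and in 4.51% of all 27025 genes with a window. Of the 16 mitochondrial synthetase genes only 1 fell, so this contrast largely sets cytosolic against mitochondrial genes. Whether ATF4 or the element plays a part in the falls was not tested. The elements of Gars, Iars, Tars and Yars are shown because they occur in fallen genes of this list, each as 30 bases 5′ to 3′ on the gene's strand, with the element in capitals. In all of these but Yars it lies on the opposite strand and is read as its reverse complement.
Gars: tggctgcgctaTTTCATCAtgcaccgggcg
Iars: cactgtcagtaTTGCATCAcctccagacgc
Tars: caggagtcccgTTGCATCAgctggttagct
Yars: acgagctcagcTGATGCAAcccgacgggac

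The stretches shown are Gars at chr6:55037960-55037989, Iars at chr13:49682126-49682155, Tars at chr15:11399655-11399684 on the minus strand, and Yars at chr4:129189895-129189924. A match describes letters in a window and does not show a bound site. In the lists of serine enzymes and transporters described next, the element was in 0 of 9 and 1 of 6 fallen genes with a window, and in 2 of 12 transporter genes that did not pass.

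Enzymes of serine and one-carbon metabolism, which supply serine, glycine and folate-bound carbon units, fell more often than they rose. Of 20 measured genes, 11 fell and 4 rose, with a median of -0.17. Psph was the third largest fall of the list, and the larger falls are not reported here. Psat1, which acts just before Psph, was at 11.90, 11.97, 11.94 and 12 in GFP arrays and 10.78, 10.78, 10.82 and 10.87 in VEGF-down arrays, a fall of 2.21-fold (-1.14 ± 0.03, adjusted p = 1.59e-09). Shmt1 and Shmt2, the cytosolic and mitochondrial serine hydroxymethyltransferases, differed by -0.83 ± 0.07 and -0.76 ± 0.05, and Mthfd1l, a mitochondrial folate enzyme, by -0.53 ± 0.04. The folate enzyme genes Mthfd1 and Aldh1l1 were among the 4 rises, at 0.39 ± 0.03 and 0.63 ± 0.09 (adjusted p = 6.53e-06 and 0.000197).

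Amino acid transporter genes that fell numbered 9 of 29 measured, and 4 rose. Slc38a1, a sodium-coupled glutamine transporter, had levels of 9.71, 9.78, 9.66 and 9.81 in GFP arrays and 8.45, 8.48, 8.49 and 8.40 in VEGF-down arrays (-1.28 ± 0.03, adjusted p = 4.47e-10). Slc1a5, which exchanges glutamine and other neutral amino acids, differed by -0.99 ± 0.06, Slc3a2, the common heavy chain of several exchangers, by -0.74 ± 0.03, and Slc7a1, which carries cationic amino acids, by -0.70 ± 0.03. The exception in size among the rises was Slc38a4, which went from a level of 3.17, just above background, to 4.25 (adjusted p = 1.11e-07).

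**Figure D4:**
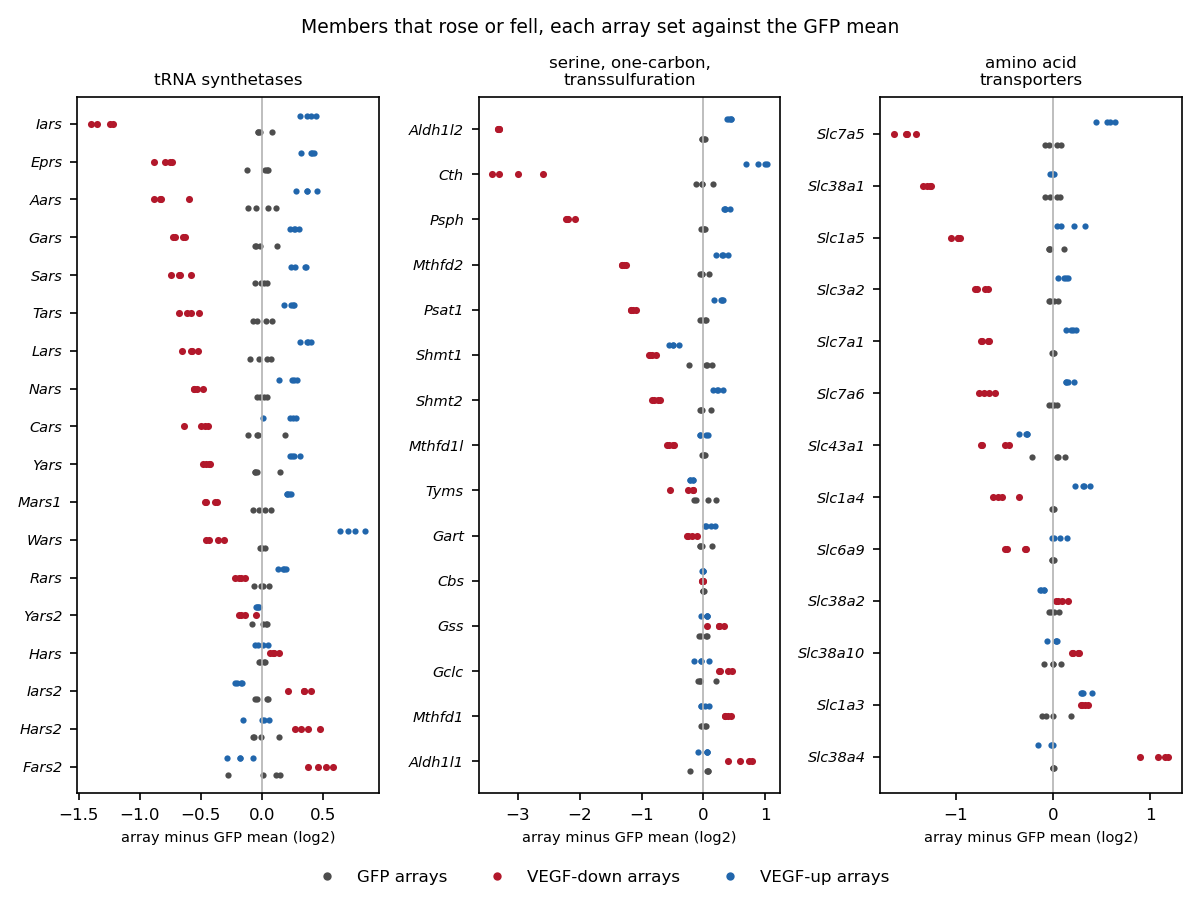
Genes of the tRNA synthetase, serine and one-carbon, and amino acid transporter lists that rose or fell, with each array's level minus the GFP mean (log2) on the x axis, GFP arrays in grey, VEGF-down in red and VEGF-up in blue. The red points of the 14 fallen synthetases, 11 fallen enzymes and 9 fallen transporters lie to the left of 0, while for Iars, Psat1 and Slc7a1 the blue points lie to the right of it.

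Proteasome subunit genes were lower by small amounts. The proteasome degrades ubiquitin-tagged proteins, and Nfe2l1 (NRF1) is the transcription factor that raises its subunit genes when proteolysis falls short. Nfe2l1 was at 9.34, 9.32, 9.28 and 9.33 in GFP arrays and 7.65, 7.52, 7.59 and 7.59 in VEGF-down arrays, a difference of -1.73 ± 0.03 (adjusted p = 1.1e-11). The groups did not overlap, and VEGF-up arrays had a mean of 9.62. Of 30 measured subunit genes, 18 fell and 3 rose, with a median of -0.12. In the 19S regulatory particle 13 of 18 fell and 2 rose, with a median of -0.17, and in the 20S core 4 of 9 fell and 0 rose by limma (5 lower and 0 higher at an unadjusted p under 0.05), with a median of -0.11. Psmd5, an assembly chaperone of the regulatory particle, went from 9.71, 9.72, 9.72 and 9.72 to 9.18, 9.11, 9.15 and 9.07 (-0.59 ± 0.03, adjusted p = 7.86e-08). Psmc3, an ATPase subunit, differed by -0.54 ± 0.04, and Psmd11, Psmd1 and Psmc6 by -0.35, -0.29 and -0.29. The core of the antioxidant response element that NRF1 can bind, searched as TGACNNNGC in the same kind of promoter window, was in 3 of 14 fallen subunit genes with a window and in 14.0% of all genes. It was also in 1 of 3 windowed subunit genes that rose and 1 of 7 that did not pass. Whether Nfe2l1 or the element plays a part in the falls was not tested. Psmb10, an immunoproteasome subunit listed with antigen processing, rose instead, by 0.82 ± 0.04 (adjusted p = 3.9e-08).

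**Figure D5:**
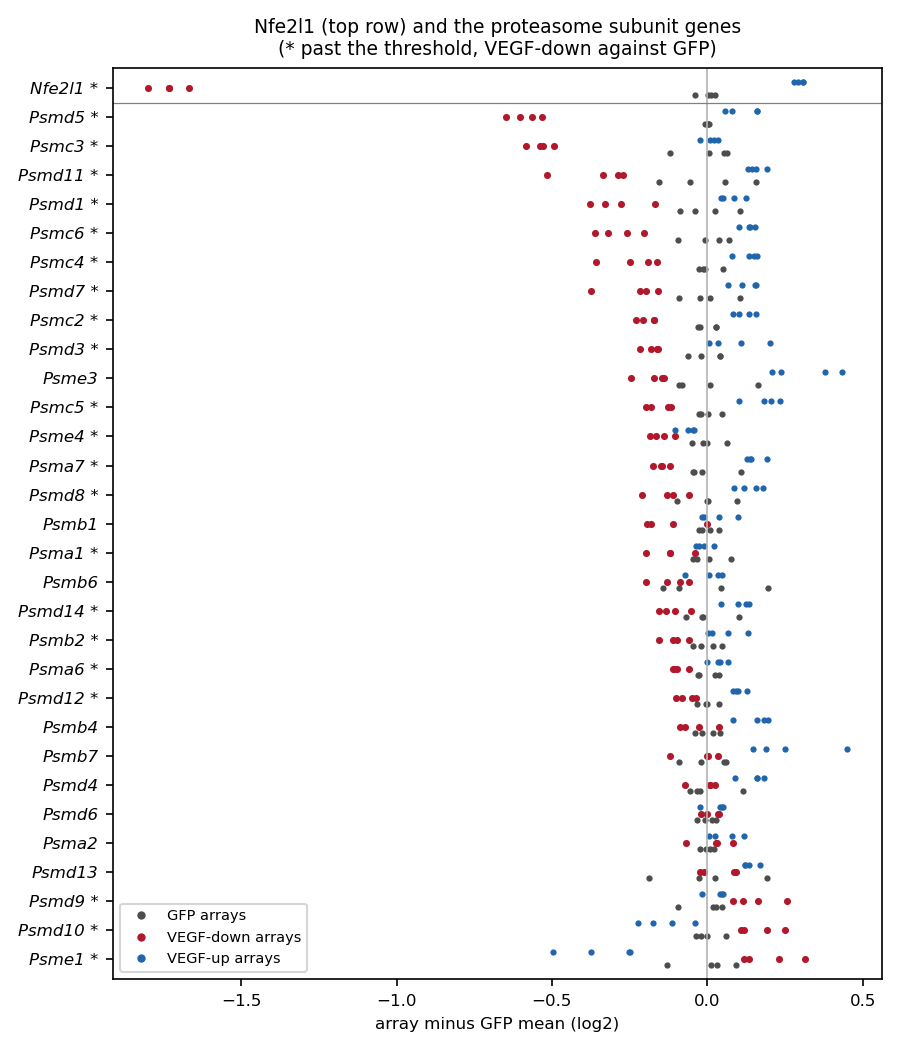
The top row is Nfe2l1 and the other rows are the 30 measured proteasome subunit genes, with each array's level minus the GFP mean (log2) on the x axis, GFP arrays in grey, VEGF-down in red and VEGF-up in blue. Asterisks mark genes past the threshold, of which 18 subunits lie to the left of 0 and 3 to the right, with Psmd5 at -0.59.

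Growth factor signalling changed gene by gene in both directions. Of 53 measured Wnt pathway genes, 11 rose (7 without GFP replicate 1) and 10 fell. These shares, 20.8% and 18.9%, were near those of probe sets above background (22.9% and 22.2%). Among ligands, Wnt2 rose from below background to a mean of 4.42, at least 2.52-fold (adjusted p = 1.27e-08), Wnt4 rose by 0.72 ± 0.05, and Wnt5b differed by -1.26 ± 0.11. The falls included 3 genes for secreted inhibitors of the frizzled-related family, Sfrp2 at 6.55, 6.23, 6.23 and 6.37 in GFP arrays and 3.61, 3.62, 3.63 and 3.90 in VEGF-down arrays, Sfrp1 at a difference of -0.89 ± 0.03 and Frzb at -0.80 ± 0.04. The agonist gene Rspo1 differed by -0.61 ± 0.04, the receptor gene Fzd1 rose by 0.82 ± 0.04, and Porcn, which adds the lipid that Wnt ligands need, rose by 0.65 ± 0.05. In the hedgehog list 3 of 17 rose and 2 fell (4 without VEGF-down replicate 3). With all arrays these are 17.6% and 11.8%, below the shares of probe sets above background. The transcription factor Gli2 differed by 0.45 ± 0.03 and the co-receptor Boc by -0.35 ± 0.05.

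The TGF-beta and BMP list held 11 rises and 12 falls among 49 genes. These are 22.4% and 24.5%, near the 22.9% and 22.2% of probe sets above background. The falls included Bambi as above, Id4, a BMP-induced inhibitor of basic helix-loop-helix factors (-1.45 ± 0.06, adjusted p = 2.07e-08), the type II receptor Bmpr2 (-0.97 ± 0.09) and the signal transducer Smad5 (-0.73 ± 0.04). The rises included the activin subunit genes Inhbb (1.49 ± 0.11) and Inhba (0.69 ± 0.05) and Fst, whose product follistatin binds activin (1.43 ± 0.09, adjusted p = 2.78e-07). Inhbb was at 4.74, 4.79, 4.74 and 4.74 in GFP arrays and 5.86, 6.35, 6.38 and 6.39 in VEGF-down arrays.

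Of 40 ligands and receptors of the FGF, PDGF and EGF families, 8 rose and 8 fell. Each share was 20%, near those of probe sets above background (22.9% and 22.2%). Fgf21, an endocrine FGF that is also a known ATF4 target, had the largest difference, from 6.90, 6.96, 6.96 and 7.08 to 4.91, 5.66, 5.34 and 5.43 (-1.64 ± 0.13, adjusted p = 2.2e-06). Pdgfa (-0.84 ± 0.03) and Hbegf (-0.58 ± 0.07) were lower as well, while Hgf (0.79 ± 0.10), Fgf18 (0.72 ± 0.09) and Fgf10 (0.71 ± 0.08) were higher. In the insulin-like growth factor axis 17 of 18 genes passed the threshold, 9 up and 8 down, all 18 being above background. The ligand Igf2 was at 8.09, 8.0, 8.18 and 8.19 in GFP arrays and 7.48, 7.40, 7.43 and 7.43 in VEGF-down arrays, but VEGF-up arrays had a like mean of 7.42, and VEGF-down did not pass against them (difference 0.01, adjusted p = 0.955). The clearance receptor Igf2r (-0.51 ± 0.03) and the adaptor Grb10 (-0.70 ± 0.03) fell. The binding proteins Igfbp5 (1.25 ± 0.07) and Igfbp4 (0.67 ± 0.03) and the receptor substrate Irs1 (0.94 ± 0.04, adjusted p = 2.45e-08) rose.

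Feedback genes of the MAPK pathway rose more often than they fell, 10 against 3 of 25, although with spike-in scaling 7 rose and 14 fell. Dusp1, a phosphatase that switches off MAP kinases, was at 8.02, 8.54, 7.98 and 7.84 in GFP arrays and 9.24, 9.22, 9.32 and 9.33 in VEGF-down arrays. GFP replicate 2 was the highest control here and for Ier3, an immediate early gene (10.79, 11.27, 11.05 and 11.13 against 12.20, 12.22, 12.19 and 12.26), and still below all VEGF-down arrays. The differences were 1.18 ± 0.12 and 1.16 ± 0.10 (adjusted p = 1.84e-05 and 4.09e-06). The phosphatases Dusp14 (0.87 ± 0.05) and Dusp6 (0.74 ± 0.05) rose too, as did Etv4, an ETS factor of this pathway, at background in all GFP arrays and at 3.98, 3.55, 3.32 and 2.88 in VEGF-down arrays. The last of these is also below background, and the difference between the groups was at least 1.27-fold. Fosl1, a component of AP-1, went the other way (-0.52 ± 0.08).

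Guidance molecules, which steer axons and vessels, were balanced at 10 rises and 10 falls of 54. Each share was 18.5%, below those of probe sets above background (22.9% and 22.2%). Slit2, a secreted repellent, rose from 9.51 to 10.65 (1.14 ± 0.07, adjusted p = 2.15e-07), as did the ephrin receptor Epha4 (0.98 ± 0.04), the netrin receptor Unc5c (0.90 ± 0.06) and the plexin Plxna2 (0.70 ± 0.04). Slit3 (-0.53 ± 0.05) and the ligand Efna1 (-0.78 ± 0.06) fell.

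Basement membrane genes fell or did not pass. Of 24 measured laminins, nidogens and associated glycoproteins, 9 fell and 0 rose by limma, the same counts as at an unadjusted p under 0.05. Nid2, which links laminin to collagen IV, was at 10.20, 9.95, 10.22 and 10.28 in GFP arrays and 8.65, 8.68, 8.78 and 8.75 in VEGF-down arrays (-1.45 ± 0.07, adjusted p = 3.47e-08). The laminin chains Lamc1 and Lama5 differed by -0.50 ± 0.05 and -0.47 ± 0.09. Smoc2 (-0.77 ± 0.04) and Sparcl1 (-0.89 ± 0.16) are matricellular genes of this list, and Sparcl1 had a like mean in VEGF-up arrays (6.56) as in VEGF-down arrays (6.52). Integrin and focal adhesion genes held 5 rises and 5 falls of 33. Each share was 15.2%, near those of all probe sets (14.6% and 16.4%). Probe sets above background had higher shares, 22.9% and 22.2%. Among the rises were Itga6, a laminin receptor subunit (1.30 ± 0.08), and the caveolin gene Cav1 (0.64 ± 0.04).

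Genes that build and edit heparan and chondroitin sulfate, the sugar chains that hold growth factors at the cell surface, rose in 18 of 45 cases and fell in 5, whereas with spike-in scaling 13 rose and 22 fell. The list median was 0.07 against -0.01 for all probe sets. The 5 falls became 3 without VEGF-down replicate 2 or 4. Has2, the hyaluronan synthase in this list, was at 7.16, 7.83, 7.49 and 7.32 in GFP arrays, with replicate 2 highest, and 9.11, 9.18, 9.06 and 9.17 in VEGF-down arrays (1.68 ± 0.13, adjusted p = 2.62e-06). Rises included the sulfotransferase genes Hs3st1 (1.20 ± 0.09), Chst15 (1.18 ± 0.07) and Hs6st2 (0.82 ± 0.03), the sulfatase Sulf1 (0.87 ± 0.03) and the core protein gene Sdc2, which encodes syndecan 2 (0.81 ± 0.02, adjusted p = 7.4e-10). The core protein gene Gpc3 fell, as described above.

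Proteases, their inhibitors and complement showed 7 rises and 3 falls of 25 for coagulation, plasminogen and complement and 6 rises and 2 falls of 16 serpins (4 falls without GFP replicate 2). With spike-in scaling these became 5 rises and 15 falls, and 5 rises and 9 falls. Pros1, which encodes the anticoagulant protein S, went from 7.21, 7.13, 7.14 and 7.10 to 8.65, 8.70, 8.46 and 8.55 (1.45 ± 0.05, adjusted p = 4.01e-09). Plau, the urokinase gene, rose by 0.89 ± 0.07 and Procr, the protein C receptor gene, by 0.54 ± 0.04. Cd55, a brake on complement at the cell surface, fell 2.61-fold (-1.38 ± 0.07). Serpinb6b rose by 1.22 ± 0.04, with the caution that it has similar neighbours, while the collagen chaperone gene Serpinh1 (-0.43 ± 0.03) and the C1 inhibitor gene Serping1 (-0.40 ± 0.06) fell. Serping1 was lower still in VEGF-up arrays, at 10.10 against 10.29 in VEGF-down arrays.

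Cytokine genes moved with more rises than falls. Of 35 genes of the interleukin-6 family and haematopoietic cytokine receptors 11 rose and 4 fell, and with spike-in scaling 7 rose and 19 fell. Il33, an alarmin kept in the nucleus, was among the brightest, at 10.91, 10.95, 10.79 and 10.81 in GFP arrays and 12.21, 12.32, 12.28 and 12.30 in VEGF-down arrays (1.41 ± 0.04, adjusted p = 1e-09). The receptor genes Il6ra (1.15 ± 0.05) and Osmr (0.86 ± 0.06) rose, whereas Il6st, the gp130 chain both signal through, fell (-0.53 ± 0.03). Of the feedback inhibitors, Socs3 rose (0.54 ± 0.10) and Socs2 fell (-1.14 ± 0.07, adjusted p = 4e-07). In the TNF superfamily 6 of 30 rose and 3 fell. These are 20% and 10%, below the 22.9% and 22.2% of probe sets above background. The rises included Tnfrsf21 as above, the ligand Tnfsf12 at 0.81 ± 0.03 and the receptor Eda2r at 0.80 ± 0.08. Eda2r had a VEGF-up mean of 9.08, and its difference from VEGF-down did not pass (adjusted p = 0.182).

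Among BCL2 family and caspase genes 5 of 25 rose and 5 fell. Each share was 20%, near those of probe sets above background (22.9% and 22.2%). Casp12, a mouse caspase of the inflammatory group, was at 7.56, 7.82, 7.68 and 7.63 in GFP arrays and 9.37, 9.49, 9.30 and 9.44 in VEGF-down arrays (1.73 ± 0.06, adjusted p = 3.46e-09). Cflar, an inhibitor of caspase-8, rose by 0.57 ± 0.03, and Bmf, a pro-apoptotic BH3-only gene, fell (-0.59 ± 0.06). Of 16 MHC class I and antigen processing genes 5 rose and 2 fell (3 and 8 with spike-in scaling). Without GFP replicate 2 or 4, or VEGF-down replicate 2, 3 or 4, 1 fell. The rises included the peptide transporter Tap2 (0.65 ± 0.09).

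Retinoid and detoxifying enzymes leaned upward, with 14 rises and 4 falls of 34 and a median of 0.08. With spike-in scaling 10 rose and 16 fell. Aldh1a1 and Aldh1a2, which make retinoic acid, rose by 1.12 ± 0.07 and 0.85 ± 0.04, beside the receptor gene Rarb. Aldh1a1 was at 10.94, 10.81, 11.01 and 11.15 in GFP arrays and 12.03, 12.14, 12.13 and 12.11 in VEGF-down arrays, with a VEGF-up mean of 10.41 below both. Aldh3a1, which clears aldehydes, rose by 1.41 ± 0.06 (adjusted p = 1.47e-08), and Cyp7b1, an oxysterol hydroxylase, by 0.61 ± 0.05.

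In the prostaglandin and leukotriene list 7 of 23 rose and 1 fell, against 6 and 13 with spike-in scaling, and 2 fell without GFP replicate 4 or VEGF-down replicate 1. Besides Pla2g7, the epoxide hydrolase Ephx2 rose by 0.85 ± 0.03 and the prostaglandin E2 receptor Ptger4 by 0.46 ± 0.08. Ptgds, a prostaglandin D2 synthase, was the fall, -1.0 ± 0.17 (adjusted p = 0.000869), and its VEGF-up mean (4.53) was close to that of VEGF-down cells (4.74).

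Fatty acid genes fell in 14 of 45 cases and rose in 10. These are 31.1% and 22.2%, where 22.2% of probe sets above background fell and 22.9% rose. Fabp4, a fatty acid carrier (-1.16 ± 0.11), Acot2, a mitochondrial thioesterase (-1.21 ± 0.07), Ppargc1b, a coactivator of mitochondrial genes (-0.90 ± 0.05), and the synthesis genes Scd1 (-0.58 ± 0.05) and Fasn (-0.44 ± 0.05) fell. Cpt1c (1.0 ± 0.11), Acsl4, which favours arachidonic acid (0.72 ± 0.07), and Acadm, of beta-oxidation (0.55 ± 0.06), rose. Among 21 lipoprotein genes 6 rose and 2 fell, which became 4 and 14 with spike-in scaling. Apoe, the apolipoprotein E gene, was at 5.02, 4.70, 4.75 and 4.93 in GFP arrays and 3.33, 3.52, 3.53 and 3.52 in VEGF-down arrays, but its VEGF-up mean of 3.52 was like that of VEGF-down cells (adjusted p = 0.775 between them). Vldlr, a lipoprotein receptor gene, fell by a difference of -0.91 ± 0.05 and lay below VEGF-up as well (-0.87). Scarb2 (0.66 ± 0.03) and Lrp2 (0.55 ± 0.08) rose.

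Lysosome and autophagy genes changed in both directions, 17 up and 13 down of 49. These are 34.7% and 26.5%, where 22.9% of probe sets above background rose and 22.2% fell. Ctsc, a protease that activates others, rose from 8.84 to 10.25 (1.41 ± 0.04, adjusted p = 2.27e-09), the cathepsin Ctsf by 0.88 ± 0.04 and the proton pump subunit Atp6v1b2 by 0.72 ± 0.03, while Grn, the progranulin gene, and Gaa, the lysosomal glucosidase gene, fell (-0.55 ± 0.03 and -0.44 ± 0.04). Glucose handling was balanced at 7 rises and 7 falls of 26, each 26.9%, near the shares of probe sets above background. Pygb, a glycogen phosphorylase, was lower (-0.77 ± 0.06). Gbe1, the glycogen branching enzyme, and Arrdc4, an arrestin that limits glucose uptake, were higher (0.66 ± 0.05 and 0.74 ± 0.06). Of 23 metallothionein and iron genes 3 rose (13.0%) and 4 fell (17.4%), shares below those of probe sets above background. The metal importer Slc39a8 (1.17 ± 0.04) and the metalloreductase Steap2 (0.71 ± 0.04) were among the rises.

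Respiratory chain genes (12 rises and 11 falls of 52) and mitochondrial ribosomal protein genes (7 and 7 of 48) changed by less than 2-fold in every case. Of these lists 44.2% and 29.2% passed the threshold, against 45.2% of probe sets above background. The 11 falls of the respiratory chain list became 7 without GFP replicate 1, GFP replicate 2 or VEGF-down replicate 2, 6 without VEGF-down replicate 3 and 5 without VEGF-down replicate 4. Heat shock genes fell in 9 of 27 cases and rose in 4. These are 33.3% and 14.8%, where 22.2% of probe sets above background fell and 22.9% rose. The falls included Cryab, a small heat shock protein, at -0.93 ± 0.05, the mitochondrial chaperone Hspa9 at -0.44 ± 0.02 and Dnajb1 at -0.41 ± 0.09. Of 27 target genes of YAP and SRF, transcription regulators that respond to cell tension, 8 rose and 8 fell. Each share was 29.6%, above the same reference shares. Fhl1 (1.17 ± 0.04), Amotl2 (0.55 ± 0.03) and Ccn1 (0.53 ± 0.04) were among the rises and Ankrd1 (-0.63 ± 0.10) among the falls.

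Cyclic nucleotide and vasoactive receptor genes passed the threshold at 13 of 48, 6 up and 7 down. That is 27.1%, against 31.0% of all probe sets and 45.2% of those above background. The list holds genes of cyclic GMP signalling, which relaxes smooth muscle. Prkg1, the cyclic GMP-dependent kinase gene, was at 7.37, 7.14, 7.46 and 7.29 in GFP arrays and 6.14, 5.72, 5.87 and 5.90 in VEGF-down arrays (-1.41 ± 0.11, adjusted p = 1.66e-06). Gucy1a1, a subunit of the nitric oxide receptor, and Npr3, a natriuretic peptide receptor, differed by -0.76 ± 0.06 and -0.74 ± 0.04, while Pde5a, which degrades cyclic GMP, rose by 0.84 ± 0.08. Channel genes held 6 rises and 7 falls of 45 (4 falls without VEGF-down replicate 1 or 4). These are 13.3% and 15.6%, near the 14.6% and 16.4% of all probe sets. Among the channel genes called were the potassium channel Kcnk6 (-0.95 ± 0.13) and the calcium channel genes Cacna1g (-0.60 ± 0.06) and Cacna2d1 (0.50 ± 0.07).

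Junction genes fell in 13 of 51 cases and rose in 9. These are 25.5% and 17.6%, where 22.2% of probe sets above background fell and 22.9% rose. Jam3, a junctional adhesion molecule, was at 8.11, 8.09, 8.08 and 8.10 in GFP arrays and 6.95, 7.16, 7.16 and 7.14 in VEGF-down arrays (-0.99 ± 0.04, adjusted p = 2.75e-08), and Ocln, the occludin gene, went from a variable control level of 6.22, 5.73, 5.80 and 5.35 to 5.04, 5.21, 5.19 and 5.21 (adjusted p = 0.00901). The scaffold gene Tjp1, which encodes ZO-1, rose by 0.56 ± 0.02, and Ppl, a plakin of desmosomes, by 0.82 ± 0.07.

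Developmental transcription factors were called in 29 of 72 cases, 17 up and 12 down. That is 40.3%, below the 45.2% of probe sets above background. Emx2, a homeobox gene of the urogenital tract and forebrain, rose from 6.44, 6.47, 6.27 and 6.10 to 7.77, 7.96, 7.73 and 7.93 (1.53 ± 0.11, adjusted p = 1.19e-06), followed by Klf5 (0.92 ± 0.04), Zeb2 (0.71 ± 0.11) and Irx3 (0.69 ± 0.05). Osr1, a factor of kidney and lateral mesoderm (-1.16 ± 0.07), Mef2c (-0.87 ± 0.10), Gata6 (-0.82 ± 0.03) and Klf2, induced by flow in endothelium (-0.77 ± 0.07), fell. Hox genes and their partners passed the threshold in 5 of 39 cases, against 31.0% of all probe sets (8 without GFP replicate 3), and 17 of the 39 had a mean above background. The falls numbered 1, and they became 4 without GFP replicate 3 and 2 without GFP replicate 1, GFP replicate 4 or VEGF-down replicate 3. Among the rises, Pbx3 rose by 1.34 ± 0.04 and Hoxb4 by 0.49 ± 0.09.

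Clock genes rose in 9 of 18 cases and fell in 2, with a median of 0.11, although with spike-in scaling 2 rose and 9 fell. Dbp, an output gene of the clock, was at 7.48, 7.58, 7.22 and 7.43 in GFP arrays and 8.19, 8.21, 7.93 and 8.02 in VEGF-down arrays, and the repressor Bhlhe40 rose by 0.50 ± 0.06. The PAR-domain factor Hlf (-1.04 ± 0.04, adjusted p = 2.07e-08) and its competitor Nfil3 (-0.69 ± 0.06) both fell. Cells of all groups were collected at day 7, and the hour of collection is not given in the sources used here.

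The lists for DNA repair, for splicing and export, and for histones and chromatin held more falls than rises. DNA repair genes fell in 13 of 43 cases and rose in 2, with a median of -0.02. Ung, which removes uracil from DNA, was at 7.95, 7.96, 8.01 and 7.82 in GFP arrays and 6.88, 6.89, 6.99 and 7.08 in VEGF-down arrays (-0.97 ± 0.06, adjusted p = 5.83e-07), and the checkpoint kinase Chek1 and the helicase Blm differed by -0.89 ± 0.06 and -0.64 ± 0.12. The rises were Ercc5, a nuclease of nucleotide excision repair (1.0 ± 0.07), and Mgmt, which reverses guanine alkylation (0.95 ± 0.07). Splicing and export factors fell in 15 of 34 cases and rose in 2 (in 1 without any single array other than GFP replicate 1), with a median of -0.09. Mbnl3, a splicing regulator, was the exception in size, 7.12, 7.01, 7.21 and 7.09 in GFP arrays against 5.73, 5.86, 5.87 and 5.83 in VEGF-down arrays (-1.28 ± 0.04, adjusted p = 3.85e-09), and the export receptor Xpo1 differed by -0.41 ± 0.04. The paraspeckle RNA Neat1 rose by 0.58 ± 0.11. Among histone and chromatin genes 15 of 40 fell and 5 rose. H2ax and H2az1, histone variant genes, differed by -0.90 ± 0.05 and -0.62 ± 0.10, and the deacetylase Hdac5 by -0.58 ± 0.06, while Tet2, which oxidises methylcytosine, rose by 0.48 ± 0.08. The replication-dependent histone gene H2bc4 had GFP replicate 2 apart from the other controls, at 9.04, 10.04, 9.12 and 8.92 in GFP arrays against 10.28, 10.31, 10.21 and 10.24 in VEGF-down arrays (adjusted p = 0.00304).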

How the data were processed

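The authors deposited 1 intensity per probe set and array on a linear scale, and the submitters' processing notes name GCRMA without its version. Per the file headers, the authors' deposited table of changed genes gives each gene's fold change with a sign (read as a score), T-statistic (a score), p-value and q-value. For this report log2 of each intensity was used as it stood. The model had 1 mean for each of the groups over 12 arrays and was run in limma 3.58.1 in R 4.3.3 (lmFit, eBayes with a variance trend), two-sided, with Benjamini-Hochberg adjustment over 17306 probe sets and a threshold of 0.05. The fit was tested on simulated data. Symbols came from the platform table and RefSeq (GRCm38.p6), matched by Entrez number for 16464 probe sets; 842 carry no symbol and are not named. For a gene at or below background in a group, a fold is given against the background level, as "at least". Whether nearly equal arrays above that level, as for Angptl6, Ramp3 and Csrnp1, lie at a lower limit of their probe set was not tested. Folds of such genes may be lower bounds too. Named genes are Vegfa and the 20 largest rises and 20 largest falls among genes past the threshold whose arrays do not overlap and whose brighter mean is above the median of all, leaving out genes described for this series before. Members of the lists may be named, and those named are not always the ones with the largest differences of their list. These choices, the 40 pathway lists, the 8 marker lists and the members were made with earlier results of these data known. Alternatives were the 8 arrays alone, no variance trend, quantile normalization, median centring, spike-in scaling (27 poly-A probe sets), probe sets above background only, an offset of 16, a replicate block, a 2-fold limit and leaving out each array. Promoter sequence of 1 gene that held a searched motif is not reported here. Precision is limited by how many arrays there are.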

Additional observations from a re-analysis of the deposited data

Results flagged for a closer look

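Within a group of 4 arrays, 1 array stood apart when its gap to the nearest other array took up more of the whole range than Dixon's 95% critical value. Among 452 groups checked for the genes named in the text, 35 (7.74%) had such an array, where chance alone gives about 1 in 20. Groups with a very small range can meet the criterion at gaps of no size, as for Angptl6 and Slc38a4 below. None of these arrays overlapped the other group of its gene.

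GFP replicate 1 stood apart in 8 genes. It was higher than its group for Serpinb7 at 5.395 (the others at most 5.304), Ces1f at 4.667 (the others at most 4.312), Frzb at 5.307 (the others at most 5.203), Sdc2 at 10.29 (the others at most 10.22) and Iars at 10.63 (the others at most 10.53). It was lower for Wnt2 at 2.493 (the others at least 2.524), Aldh1l1 at 3.261 (the others at least 3.536) and Ercc5 at 7.372 (the others at least 7.675). GFP replicate 2 stood apart in 11 genes. It was higher than its group for Vegfa at 7.373 (the others at most 7.151), Porcn at 6.739 (the others at most 6.548), Inhbb at 4.792 (the others at most 4.743), Chst15 at 5.513 (the others at most 5.342), Slc1a5 at 7.33 (the others at most 7.188) and Slc38a4 at 3.184 (the others at most 3.17). It was lower for Itih2 at 7.931 (the others at least 7.993), Id4 at 9.042 (the others at least 9.192), Smad5 at 8.078 (the others at least 8.194), Unc5c at 5.666 (the others at least 5.753) and Cacna2d1 at 5.63 (the others at least 5.699). GFP replicate 3 stood apart in 2 genes. It was lower than its group for Wnt4 at 7.124 (the others at least 7.328) and Scd1 at 10.17 (the others at least 10.26). GFP replicate 4 stood apart in 4 genes. It was higher than its group for Yars at 7.655 (the others at most 7.463). It was lower for Gli2 at 8.031 (the others at least 8.113), Serpinh1 at 12.4 (the others at least 12.48) and Eprs at 10.75 (the others at least 10.89). VEGF-down replicate 1 stood apart in 6 genes. It was lower than its group for Angptl6 at 3.861 (the others at least 3.866), Inhbb at 5.859 (the others at least 6.355), Apoe at 3.326 (the others at least 3.52), Jam3 at 6.949 (the others at least 7.144), Ocln at 5.043 (the others at least 5.188) and Upk1b at 12.06 (the others at least 12.14). VEGF-down replicate 2 stood apart in 2 genes. It was lower than its group for Sparcl1 at 6.455 (the others at least 6.533) and Serping1 at 10.22 (the others at least 10.31). VEGF-down replicate 4 stood apart in 2 genes. It was higher than its group for Sfrp2 at 3.903 (the others at most 3.633) and Ppl at 7.021 (the others at most 6.74).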

How the results depend on the processing

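Vegfa stayed lower and past the threshold under all 16 alternatives run for it, with differences from -0.58 (offset of 16) to -0.88 (spike-in scaling), and all 40 named genes differed from VEGF-up under each of the 15 alternatives that keep those arrays. Median centring gave 10708 probe sets past the threshold (2545 rises and 8163 falls), spike-in scaling 14412 (974 rises and 13438 falls), and a limit of at least 2-fold 321 (167 rises and 154 falls). Scaling shifts all probe sets together; why the spike-in levels differ was not tested. The share of rises among calls, 47.1%, became 23.8% with median centring and 6.76% with spike-in scaling. With median centring the median of all probe sets was -0.03, and with spike-in scaling -0.23. The other settings gave 4591 probe sets from the 8 arrays alone, 5060 without the variance trend, 5113 with quantile normalization, 5223 over probe sets above background and 5307 with the offset. Leaving out 1 array at a time gave 4557 to 5277 probe sets. The replicate block gave 4876 probe sets (2389 rises and 2487 falls) and an adjusted p of 5.71e-05 for Vegfa. Deviations of GFP and VEGF-down arrays with the same number correlated at 0.0039, 0.067, 0.026 and -0.093. Those with different numbers correlated at -0.11 to 0.15. These values show no pairing of the samples by number, but they cannot exclude a weak one. Of 3612 values of named genes under alternatives, 3604 were counted as unchanged. For genes past the threshold in the main fit this means the same direction and side of the threshold, and 0 reversed. A gene not past it was also counted as unchanged wherever its direction changed. The values counted as changed were those of Hars2 and Iars2, no longer past the threshold with spike-in scaling, and of Pecam1, Cdh5 and Tek. These 3 passed it as lower with median centring and spike-in scaling. The count of calls moved by over 1.5 times for 23 lists with median centring and for 37 with spike-in scaling. It moved by as much for 1 list each with the 8 arrays alone (visceral endoderm, 1 to 2), without the variance trend and with quantile normalization (epithelial, 1 to 2). Leaving out an array moved the count of rises or falls by over 1.5 times for 13 of 48 lists, each given beside its list; among them respiratory chain falls went from 11 to 5. Signal over background limits the lowest genes: 451 calls had means at or below background.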

Other observations

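Genes on the Y chromosome were lower in VEGF-down cells, a pattern picked out after its values were seen. Of 4 Y-linked probe sets above background, 4 fell, among them Uty (-0.60), Kdm5d (-0.30) and Eif2s3y (-0.30), with a median of -0.30. Uty had log2 levels of 6.28, 6.28, 6.46 and 6.15 in GFP arrays and 5.58, 5.72, 5.85 and 5.63 in VEGF-down arrays, with no overlap. Levels of Eif2s3y and of the Y-linked probe set without a symbol overlapped between the groups (limma, adjusted p = 0.0478 and 0.046). Against VEGF-up arrays, Uty and the unnamed probe set passed the threshold, while Kdm5d and Eif2s3y did not (adjusted p = 0.111 and 0.152). Of 338 X-linked probe sets above background, 87 rose and 68 fell, with a median of -0.01.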
